A study of Homo sapiens with 6 samples.

Results

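The 10 integrin subunits of squamous epithelium described here are ITGA2, ITGA3, ITGA5, ITGA6, ITGAV, ITGB1, ITGB4, ITGB5, ITGB6 and ITGB8, chosen by name among the 14959 genes of the deposited table. Their mRNA was measured by RNA-seq in UM-SCC1, an established line of human HNSCC, squamous cell carcinoma of the head and neck. Cells received either miR-204-5p mimics (n = 3) or control mimics (n = 3) and were collected 48 h later. A mimic is a synthetic double-stranded RNA made to act in place of the mature miRNA, and it was brought in with a lipid reagent. The comparison asks how the mRNA of these receptors differed once miR-204-5p was supplied. The values are FPKM, fragments per kilobase of transcript scaled to a common number of mapped fragments, computed by the authors. The depth inferred from the values was about 13100000 to 16400000 fragments per library, or 26100000 to 32800000 under another reading given below. At the lower depth and the transcript length listed for each gene, the subunits rested on about 167 (ITGB5) to 5619 (ITGB4) fragments in a library. At the length of all exons joined, which the values of genes with several transcripts matched more often, they rested on about 246 (ITGB5) to 16507 (ITGA3).

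Integrins are cell-surface receptors that hold epithelial cells to the matrix beneath them. Each receptor pairs 1 alpha subunit with 1 beta subunit, and the pair decides the ligand. In squamous epithelium, α6β4 anchors hemidesmosomes to laminin, α3β1 binds laminin, α2β1 binds collagen, α5β1 binds fibronectin, and the αv subunit pairs with β1, β5, β6 or β8. The αvβ5 receptor binds vitronectin, and αvβ6 and αvβ8 bind and activate latent TGF-beta. ITGB1 serves many alpha subunits, whereas ITGB4 is known to pair only with ITGA6.

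All 8 markers of squamous epithelium fixed for the check had a mean of at least 1 FPKM. Their summed level was 655 to 676 FPKM with control mimics and 473 to 571 FPKM with miR-204-5p mimics, so this sum moved with the treatment. The markers did not all move together. TP63, DSG3, DSC3, KRT5 and KRT14 fell and CDH1 and KRT6A rose. KRT17, the most abundant, did not pass (adjusted p = 0.329 by limma). Of 6 fibroblast markers, 4 had a row and COL1A1 alone passed a mean of 1 FPKM (summed 8.58 to 9.41 FPKM with control mimics, 9.81 to 11.6 with miR-204-5p mimics). The 3 endothelial markers with a row summed to 0.443 to 0.502 and 0.590 to 0.767 FPKM. Of 5 leukocyte markers, CD14 alone passed 1 FPKM (summed 16.6 to 17.5 and 12.4 to 14.1 FPKM), and the pan-leukocyte marker PTPRC was at 0.138 ± 0.0161 and 0.293 ± 0.220 FPKM (SD, n = 3). The part of these shifts in the integrin results was not tested. In bulk RNA, fewer cells of a kind and less RNA per cell cannot be told apart.

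miRNAs lower mRNA mainly by pairing bases 2 to 8, the seed, with sites in the 3'UTR. The mature miRNA is shown because its seed defines the sites sought in the integrin mRNAs, with the seed in capitals. It lies at chr9:70810031-70810052 on the minus strand (GRCh38).
miR-204-5p: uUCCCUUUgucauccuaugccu

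The sites sought were AAAGGGAA (8mer), AAAGGGA (7mer-m8), AAGGGAA (7mer-A1) and AAGGGA (6mer), on the transcript strand only, in the longest 3'UTR that GENCODE 29 gives to a protein-coding transcript of each gene. The shorter motifs lie within the longer ones. A single subunit of the 10, ITGB8, held a match of 7 or more bases, against 27.1% of the 14664 genes with such a 3'UTR. None of the 10 held an 8mer, against 8.60% of those genes. The 6mer or better was found in 2 subunits, ITGB8 and ITGAV, against 39.4% of genes. Each site below is shown because it is all that the longest 3'UTRs of the 10 subunits hold, with the match in capitals and GRCh38 positions.
ITGB8 7mer-A1, chr7:20412807-20412836, plus strand: aattaaatggtAAGGGAAcacagggtactc
ITGB8 6mer, chr7:20410872-20410901, plus strand: cctggtaaactgAAGGGAttgtttggccat
ITGB8 6mer, chr7:20412595-20412624, plus strand: tgttaccataggAAGGGAcaaacttccttg
ITGAV 6mer, chr2:186677516-186677545, plus strand: taataaaatttcAAGGGAtagtttttattc
ITGAV 6mer, chr2:186679992-186680021, plus strand: aatcatgaccctAAGGGAgagatttgtgtg

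The ITGB8 matches lie in exon 14, the last, of a 3'UTR of 5757 bases, and among 850 genes with a 3'UTR of 0.8 to 1.2 times that length 68.0% held a match of 7 or more bases. The ITGB8 transcript that the table lists has a 3'UTR of 333 bases and does not reach these matches. The ITGAV 6mers lie in exon 30 of the listed transcript. ITGA2 held no match in a 3'UTR of 4180 bases, where 55.3% of 1406 genes of similar length did. An 8mer was found in ITGA2 and in ITGA5 only where GENCODE 29 counts a coding stretch of the main transcript as 3'UTR of transcripts marked for nonsense-mediated decay. These 2 are shown because they are the only full 8mers found in annotated 3'UTRs of the 10 genes.
ITGA2 8mer, chr5:53073172-53073201, plus strand: gctgaaaaataAAAGGGAAagtgcatacaa
ITGA5 8mer, chr12:54407654-54407683, minus strand: ctggtgtgcccAAAGGGAAcctcacttacg

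A letter match is a description of the sequence and was not tested for binding. Counting every annotated 3'UTR, 3 of the 10 subunits held a match of 7 or more bases, against 33.7% of genes, so these counts say nothing particular about integrins. The map places each match along its 3'UTR.

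**Figure D1:**
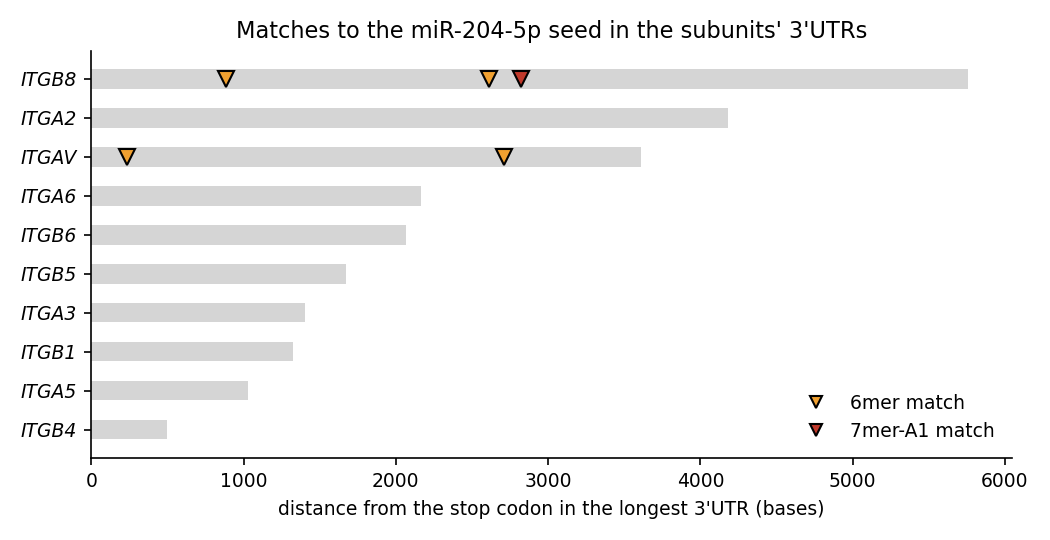
The longest 3'UTR of each integrin subunit, drawn as a grey bar from the stop codon (x axis, bases), with triangles at matches to the miR-204-5p seed. ITGB8 carries the single match of 7 bases and 2 of 6 bases, ITGAV carries 2 of 6 bases, and the other 8 subunits carry none.

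Of the 10 subunits, 8 passed limma at an adjusted p under 0.05, with 5 lower and 3 higher in the cells given miR-204-5p mimics. Across all 14959 genes the same criterion was met by 40.8% in either direction, 16.8% lower and 23.9% higher. The balance of directions among all genes depended on the scaling, with 3025 lower and 3023 higher at equal medians against 2520 and 3578 as deposited. In the same 8 the libraries of the groups did not overlap, which held for 53.6% of all genes (22.7% lower, 30.9% higher). ITGA3, ITGA6 and ITGB4, subunits of the laminin receptors α3β1 and α6β4, rose. The collagen receptor subunit ITGA2 fell the most, and ITGAV, ITGB5, ITGB8 and ITGB1 fell with it. ITGB1 is also a subunit of α3β1, so the subunits of laminin receptors did not all rise. ITGA5 and ITGB6 did not pass the test. All 10 had a mean of at least 1 FPKM. When only the 11504 genes at or above that mean were fitted, 5761 passed, a larger share than among all genes. Changes are given as log2FC, the difference of the group means of log2(FPKM + 1), a scale that shrinks the changes of low genes. The 10 subunits had a median log2FC of −0.14, against 0.03 for all genes. The position given for each subunit below is that of its listed transcript, which can be shorter than the gene. For ITGB8 it ends before the 3'UTR matches shown above.

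**Figure D2:**
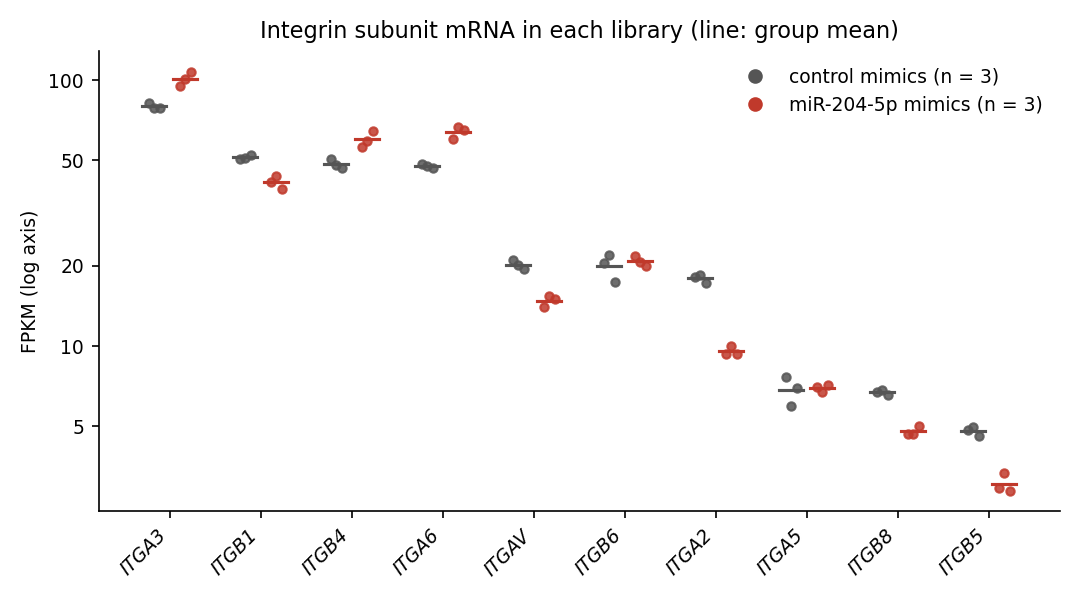
FPKM of each subunit in each library (log axis), ordered by the control mean, with a line at each group mean; grey points are control mimics and red points miR-204-5p mimics (n = 3 each). Red lies above grey for ITGA3, ITGB4 and ITGA6, below grey for ITGB1, ITGAV, ITGA2, ITGB8 and ITGB5, and mixes with grey for ITGB6 and ITGA5.

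ITGA6 (ENSG00000091409, chr2:172427354-172474977, plus strand) encodes the alpha subunit shared by α6β4 and α6β1. Its FPKM was 48.5, 47.7 and 46.6 with control mimics and 59.9, 66.6 and 64.7 with miR-204-5p mimics. All 3 libraries of the treated cells were above every control, and the mean was 33.9% higher. It changed by 0.41 in log2FC (95% interval 0.30 to 0.53, adjusted p = 0.000934 by limma).

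ITGB4 (ENSG00000132470, chr17:75721328-75757604, plus strand) encodes the beta subunit with the long cytoplasmic tail that reaches the keratin network. It measured 50.4, 47.7 and 46.9 FPKM with control mimics and 55.8, 59.0 and 64.6 FPKM with miR-204-5p mimics. The groups did not overlap, and the log2FC was 0.30 (95% interval 0.15 to 0.44, adjusted p = 0.00868 by limma).

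ITGA3 (ENSG00000005884, chr17:50055968-50076995, plus strand), the laminin-binding partner of ITGB1, was the most abundant subunit in both groups. It measured 81.8, 78.3 and 78.8 FPKM with control mimics and 95.002, 100.8 and 107.5 FPKM with miR-204-5p mimics. Again no control library reached the lowest of the miR-204-5p mimics. This was a log2FC of 0.34 (95% interval 0.22 to 0.46, adjusted p = 0.00278 by limma).

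ITGA2 (ENSG00000164171, chr5:52989326-53094779, plus strand) encodes the collagen-binding alpha subunit of α2β1. It fell from 18.1, 18.6 and 17.2 FPKM with control mimics to 9.36, 9.98 and 9.36 FPKM with miR-204-5p mimics. The mean was 53.3% of the control mean, and the spread within a group was small beside this (CV 3.90% with control mimics and 3.72% with miR-204-5p mimics). Its log2FC was −0.84 (95% interval −0.96 to −0.72, adjusted p = 9.77e-05 by limma), and no other subunit's interval reached this one.

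ITGB1 (ENSG00000150093, chr10:32900319-32935558, minus strand) encodes the common beta subunit. It measured 50.5, 51.0 and 52.1 FPKM with control mimics and 41.5, 43.5 and 38.9 FPKM with miR-204-5p mimics. The groups were apart, with means of 41.3 ± 2.29 against 51.2 ± 0.783 FPKM (SD, n = 3), so that 80.7% of the control level was left. The log2FC was −0.30 (95% interval −0.42 to −0.19, adjusted p = 0.00305 by limma).

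ITGAV (ENSG00000138448, chr2:186590065-186680901, plus strand) encodes αv. It measured 21.0, 20.1 and 19.5 FPKM with control mimics and 14.0, 15.4 and 15.002 FPKM with miR-204-5p mimics. All 3 libraries with miR-204-5p mimics were below the controls, with a log2FC of −0.42 (95% interval −0.55 to −0.30, adjusted p = 0.00122 by limma).

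Besides ITGB1, the beta partners of αv among the 10 are ITGB5, ITGB6 and ITGB8. ITGB5 (ENSG00000082781, chr3:124761948-124887297, minus strand), of the vitronectin receptor αvβ5, was the least abundant subunit. It measured 4.82, 4.96 and 4.61 FPKM with control mimics and 2.93, 3.32 and 2.86 FPKM with miR-204-5p mimics. These groups were apart, with a log2FC of −0.52 (95% interval −0.69 to −0.36, adjusted p = 0.00151 by limma).

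ITGB8 (ENSG00000105855, chr7:20330702-20410330, plus strand), whose product with αv binds latent TGF-beta, measured 6.73, 6.82 and 6.54 FPKM with control mimics and 4.67, 4.66 and 5.02 FPKM with miR-204-5p mimics. The libraries of the treated cells were all lower, with a log2FC of −0.41 (95% interval −0.54 to −0.28, adjusted p = 0.00161 by limma).

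ITGB6 (ENSG00000115221, chr2:160099666-160200301, minus strand), the epithelial partner of αv, did not pass. It measured 20.5, 22.1 and 17.3 FPKM with control mimics and 21.8, 20.6 and 19.97 FPKM with miR-204-5p mimics. The groups overlapped, and control replicate 3 was the lowest of the 6. The log2FC was 0.06 (95% interval −0.15 to 0.27, adjusted p = 0.618 by limma), and it was −0.032 without control mimics replicate 3.

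ITGA5 (ENSG00000161638, chr12:54395261-54419460, minus strand), the alpha subunit of the fibronectin receptor, measured 7.67, 5.96 and 6.96 FPKM with control mimics and 7.01, 6.72 and 7.12 FPKM with miR-204-5p mimics. The control libraries spanned those with miR-204-5p mimics. The log2FC was 0.02 (95% interval −0.19 to 0.23, adjusted p = 0.870 by limma), with a sign that turned under each of the 3 other scalings of the libraries. The intervals of ITGB6 and ITGA5 allow changes of up to about 0.27 and 0.23 on this scale, so small changes were not detectable. In both genes the control libraries were the more variable (CV 12.0% and 12.6%, against 1.53% to 3.90% for the other 8 subunits).

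**Figure D3:**
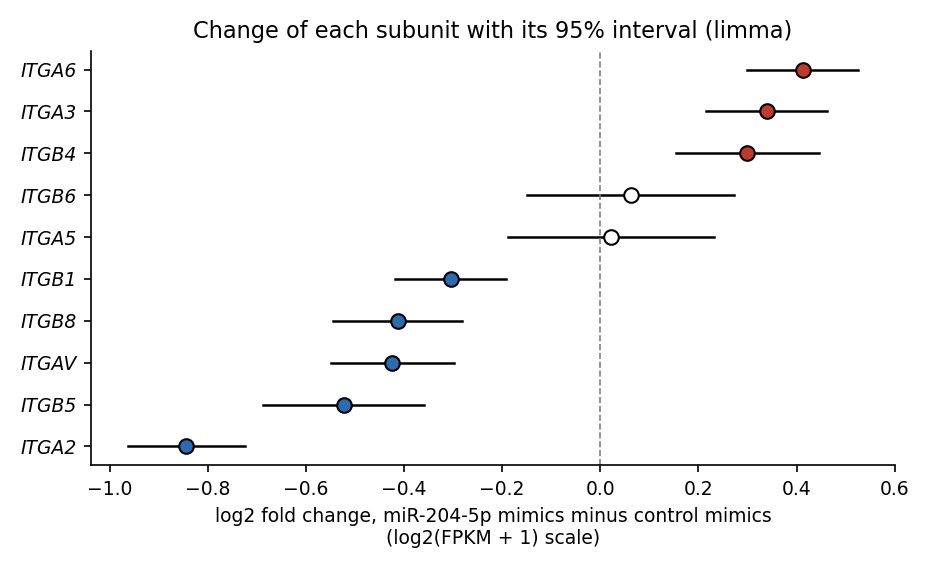
Log2FC of each subunit (x axis, miR-204-5p mimics minus control mimics, log2(FPKM + 1) scale) with its 95% interval from limma; filled points have an adjusted p under 0.05. ITGA6, ITGA3 and ITGB4 lie right of 0, ITGA2 lies farthest left at −0.84, and the intervals of ITGB6 and ITGA5 cross 0.

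Levels between genes were compared in FPKM, which is per length, although the length that each value was divided by is not certain for genes with several transcripts. With control mimics the order was ITGA3, ITGB1, ITGB4, ITGA6, ITGAV, ITGB6, ITGA2, ITGA5, ITGB8 and ITGB5. In that order the ranges of ITGB4 and ITGA6, of ITGAV and ITGB6, of ITGB6 and ITGA2, and of ITGA5 and ITGB8 overlapped. ITGB1, second with control mimics at 51.2 ± 0.783 FPKM, stood below ITGA6 and ITGB4 with miR-204-5p mimics. With miR-204-5p mimics ITGA6 and ITGB4 were the only neighbours whose ranges overlapped. The FPKM of the 10 subunits summed to 310.1, 303.2 and 296.4 with control mimics and 312.0, 330.5 and 335.0 with miR-204-5p mimics, a difference of 0.10 on the log2 scale. That difference was 0.05 with libraries scaled to equal medians and 0.06 with equal sums.

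Ratios between partner subunits within a library are the same whatever single factor a library is multiplied by, as with equal sums or equal medians. Of 9 ratios that follow the known pairs, 8 had groups that did not overlap. For each of these 8 the two-sided exact permutation test gave p = 0.1, the smallest that 3 libraries against 3 allow (Benjamini-Hochberg adjusted p = 0.111 over 10 quantities, the summed level included), so none could pass 0.05.

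Relative to ITGB1, its partners shifted in different directions. The ITGA3 to ITGB1 ratio was 1.62, 1.54 and 1.51 with control mimics and 2.29, 2.32 and 2.76 with miR-204-5p mimics, a log2 difference of 0.65. The ITGA2 to ITGB1 ratio moved the other way, from 0.359, 0.364 and 0.330 to 0.226, 0.230 and 0.241, a log2 difference of −0.60. The ITGA5 to ITGB1 ratio was 0.134 ± 0.0175 with control mimics and 0.169 ± 0.0141 with miR-204-5p mimics (SD, n = 3). Summed over the 5 alpha subunits that pair with it, ITGA2, ITGA3, ITGA5, ITGA6 and ITGAV, alpha mRNA per ITGB1 mRNA was 3.37 ± 0.130 with control mimics and 4.76 ± 0.413 with miR-204-5p mimics.

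ITGA6 and ITGB4, the hemidesmosome pair, kept nearly equal FPKM. Their ratio was 0.962, 1.00 and 0.994 with control mimics and 1.07, 1.13 and 1.00 with miR-204-5p mimics, and the nearest values of the groups were close (log2 difference 0.11, or 0.073 without miR-204-5p mimics replicate 2). Among the other partners of αv, the ITGB6 to ITGAV ratio was 0.977, 1.10 and 0.891 with control mimics and 1.56, 1.34 and 1.33 with miR-204-5p mimics, a log2 difference of 0.51. The ITGB5 to ITGAV ratio was 0.238 ± 0.00872 and 0.205 ± 0.0128 (SD, n = 3).

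The ITGB8 to ITGAV ratio was 0.321, 0.340 and 0.336 with control mimics and 0.334, 0.303 and 0.334 with miR-204-5p mimics, and these groups overlapped (log2 difference −0.04, exact permutation p = 0.5, which does not show that the ratio was held). ITGAV per summed ITGB5, ITGB6 and ITGB8 was 0.644 ± 0.0461 and 0.518 ± 0.0364 (SD, n = 3). These are ratios of mRNA, and no subunit protein was measured here.

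**Figure D4:**
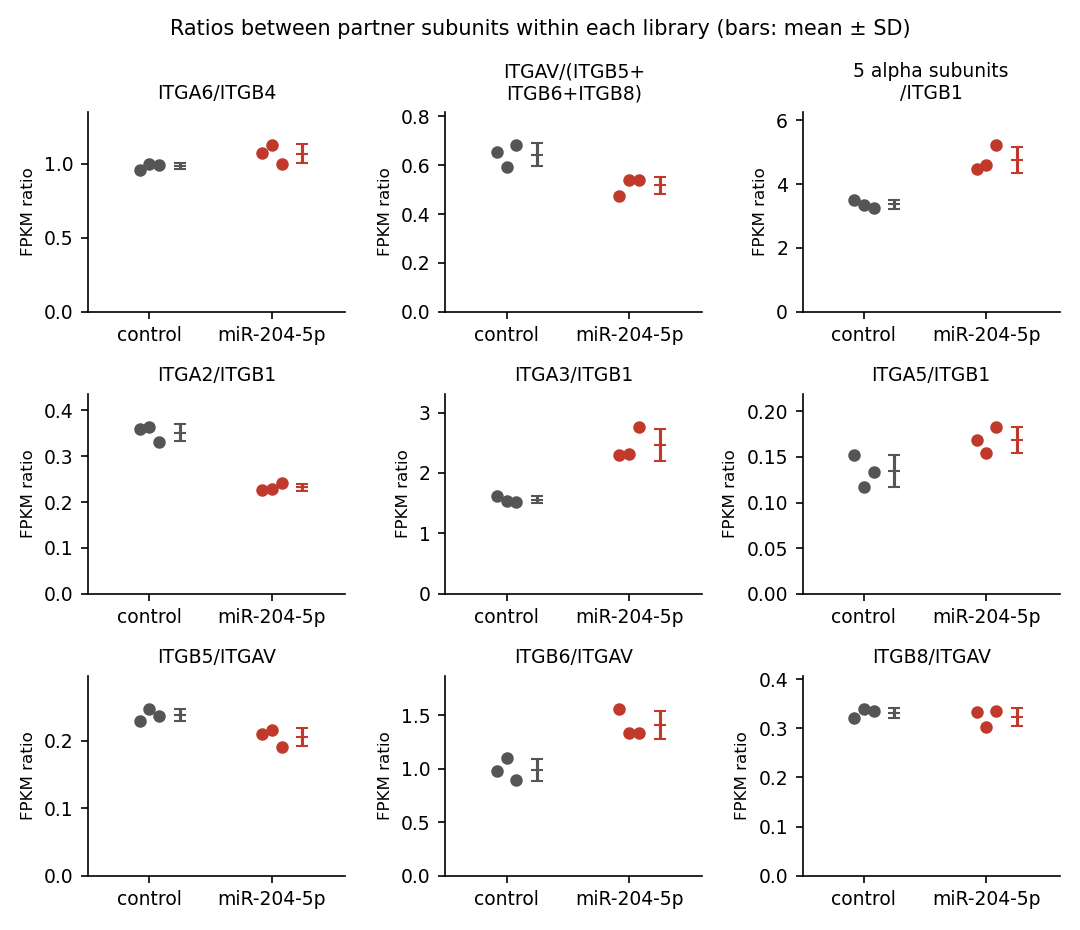
FPKM ratios between partner subunits in each library (y axes start at 0), control mimics in grey and miR-204-5p mimics in red, with mean ± SD beside the points (n = 3 each). The groups are apart in every panel but ITGB8/ITGAV, with ITGA3/ITGB1 and ITGB6/ITGAV higher and ITGA2/ITGB1 lower with miR-204-5p mimics.

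Of the 16 other integrin subunits, 14 had a row and 3 of these had a mean of at least 1 FPKM. ITGB2, the leukocyte beta subunit, rose from 1.18 ± 0.0197 to 1.81 ± 0.334 FPKM (log2FC 0.36, adjusted p = 0.0194 by limma). ITGA1, a collagen-binding partner of ITGB1 that falls outside the naming rule and was picked because it is the other one called, rose from 0.416 ± 0.0173 to 0.683 ± 0.0346 FPKM (0.25, adjusted p = 0.00427 by limma). The 12 others did not pass, so that 14.3% of these subunits did, against 40.8% of all genes. These shares are not like for like, because most of these subunits were below 1 FPKM and the scale shrinks the changes of low genes. The level of ITGA1 was far below the 9.57 FPKM that ITGA2 kept with miR-204-5p mimics.

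Of 21 matrix ligands with a row, 13 passed, 6 lower and 7 higher, with a median log2FC of 0.07 over the list. That is 61.9% of the list, against 40.8% of all genes. LAMB3, the beta chain of laminin-332 on which α6β4 and α3β1 sit, measured 40.9, 37.7 and 38.0 FPKM with control mimics and 63.0, 61.8 and 65.7 FPKM with miR-204-5p mimics (log2FC 0.70, adjusted p = 0.000138 by limma).

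Among the other ligands, LAMC1, the gamma chain of most basement membrane laminins, fell from 106 ± 4.44 to 63.6 ± 1.71 FPKM (log2FC −0.72, adjusted p = 9.91e-05 by limma). COL4A1, a chain of type IV collagen, fell from 3.15 ± 0.128 to 1.38 ± 0.149 FPKM (−0.80, adjusted p = 0.000320 by limma), and its partner chain COL4A2 from 4.10 ± 0.0671 to 2.94 ± 0.399 FPKM (−0.38, adjusted p = 0.0131 by limma). The matricellular integrin ligands CYR61 and CTGF rose, CYR61 from 7.32 ± 0.169 to 25.3 ± 1.94 FPKM (1.66, adjusted p = 3.09e-05 by limma) and CTGF from 0.681 ± 0.184 to 3.35 ± 0.221 FPKM (1.38, adjusted p = 0.000148 by limma).

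Of 4 hemidesmosome genes besides ITGA6 and ITGB4, 1 fell and 1 rose (2 of 4, against 40.8% of all genes). COL17A1, the transmembrane collagen that sits beside α6β4, fell from 85.1, 87.2 and 76.6 FPKM to 36.8, 32.6 and 32.1 FPKM (log2FC −1.27, adjusted p = 8.86e-05 by limma), the opposite direction to ITGA6 and ITGB4. DST, which encodes the plakin BP230, rose from 6.10 ± 0.521 to 7.49 ± 0.501 FPKM (0.26, adjusted p = 0.0357 by limma). PLEC and CD151 did not pass.

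Of the 8 genes with a row in the list named for the latent TGF-beta complex, 1 fell and 2 rose (37.5% passed, against 40.8% of all genes). The list was included because αvβ6 and αvβ8 bind latent TGF-beta, but it is not a list of their ligands. Binding of each member to them was not tested. A change in TGFB2, LTBP4 or LTBP2 is thus not shown to be a change in a ligand. TGFB2 rose from 0.608 ± 0.0816 to 4.38 ± 0.109 FPKM (log2FC 1.74, adjusted p = 2.95e-05 by limma) and LTBP4, a latent TGF-beta binding protein, from 4.56 ± 0.309 to 8.95 ± 1.21 FPKM (0.83, adjusted p = 0.00107 by limma). LTBP2 fell from 7.34 ± 0.521 to 5.79 ± 0.266 FPKM (−0.30, adjusted p = 0.0129 by limma). TGFB1 (log2FC −0.12, adjusted p = 0.165 by limma) and TGFB3 (−0.084, adjusted p = 0.489 by limma) did not pass.

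Inside the cell, 19 of 36 genes of integrin activation and focal adhesion passed, 11 lower and 8 higher, with a median log2FC of −0.02. This was 52.8% of the list, against 40.8% of all genes. On the log2(FPKM + 1) scale, which ranks low genes lower than their fold would, the largest decreases were in the adaptor CRKL (53.8 ± 2.23 to 31.0 ± 1.00 FPKM, log2FC −0.78, adjusted p = 9.58e-05 by limma), TNS4 (−0.55), a tensin that binds beta tails, and VASP (−0.44), an actin polymerization factor. On the same scale the largest increases were in the scaffold PXN (17.7 ± 0.862 to 27.1 ± 3.01 FPKM, 0.58, adjusted p = 0.00212 by limma), the actin crosslinker FLNA (0.54) and TNS3 (0.53).

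Of 13 tetraspanins and other membrane partners, 3 passed (23.1%, against 40.8% of all genes). SDC1, the syndecan that works beside αv integrins, fell from 152 ± 4.11 to 97.4 ± 2.31 FPKM (log2FC −0.64, adjusted p = 9.38e-05 by limma), while TSPAN4 (0.97) and CD47 (0.33), a partner of integrin signalling, rose. Of 15 trafficking genes with a row, RAB4A (0.23), RAB25 (0.22) and RAB11FIP1 (0.22) rose and the other 12 did not pass (3 of 15 passed, against 40.8% of all genes). These 2 lists had median log2FCs of 0.04 and 0.02, against 0.03 for all genes. All 13 and all 15 of their genes had a mean of at least 1 FPKM, as did 17 of 21 ligands and 32 of 36 adhesion genes. The 40.8% also counts genes below that mean. Among the 11504 genes at or above it, fitted alone, 5761 passed, so the like share is larger. Over the 7 lists together 45 of 111 genes passed, or 40.5%, near the share of all genes.

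**Figure D5:**
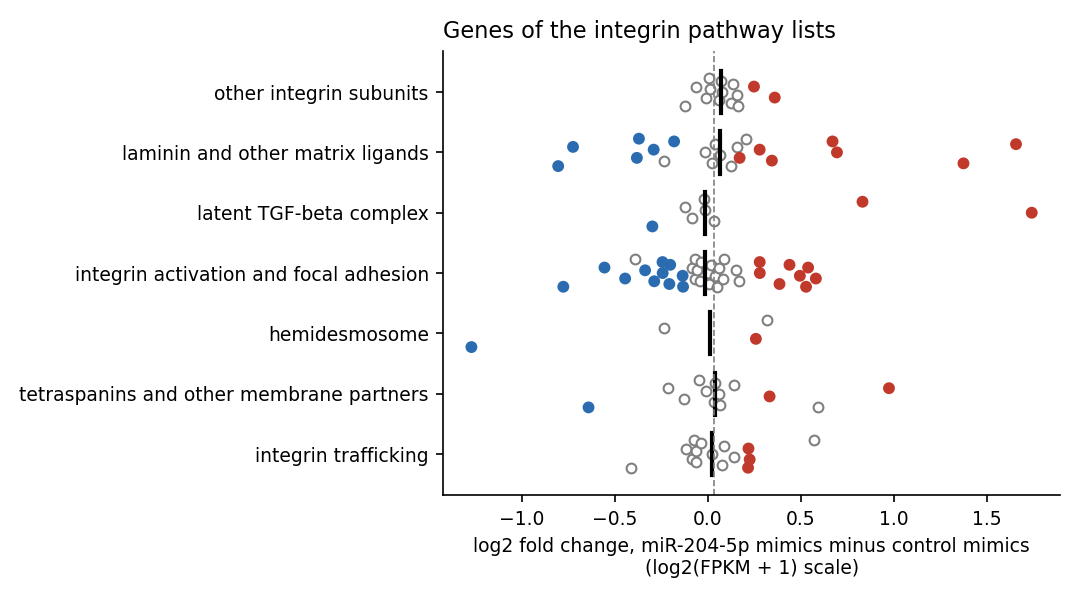
Log2FC (x axis, miR-204-5p mimics minus control mimics) of every gene with a row in the 7 integrin pathway lists; filled points passed an adjusted p under 0.05 (blue lower, red higher), black bars mark list medians and the dashed line the median of all genes. Both directions occur among ligands and adhesion genes, with TGFB2 and CYR61 farthest right and COL17A1 farthest left.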

How the data were processed

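The authors prepared TruSeq RNA libraries, sequenced them on an Illumina HiSeq instrument and deposited 1 FPKM value per gene and library. The submitters' processing notes name HISAT2, StringTie and hg38, with no roles or versions. The deposited table also holds the authors' edgeR comparison (a log2 ratio, a p-value and an FDR), which was not used. Coordinates of the subunits are those of the listed transcript on GRCh38, not of the whole gene. The table lists 1 transcript per gene. Depth was inferred from genes with 1 transcript. Their low values were counted in a window 0.05 steps wide in total around each whole multiple of the smaller step found. In it lay 21.8% to 36.3% of them (2.93% to 5.21% at a wrong step). The lower depth uses a larger step, whose whole multiples are the even multiples of the smaller one. Even multiples matched more often (28.4% to 44.3%) than odd ones (10.4% to 24.2%). The depth would be 26100000 to 32800000 fragments if the smaller step is 1 fragment. In genes with several transcripts such values were more frequent at the length of all exons joined than at the listed length, in 6 of 6 libraries (9.75% to 17.2% against 6.92% to 9.21%). ITGA6 is listed at 970 bases and ITGA3 by a transcript of nonsense-mediated decay. GENCODE 29 places a gene on the opposite strand over 8 subunits, and use of strand is not given in the sources used here. Of the overlapping genes GALK1 alone, over ITGB4, has a row (16.4 and 17.4 FPKM, adjusted p = 0.276 by limma).

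Values were compared as log2(FPKM + 1) in R 4.3.3 by limma 3.58.1 (a linear model with a trended empirical Bayes variance), two-sided, with the Benjamini-Hochberg adjustment over all 14959 genes, no filter and a threshold of 0.05. The authors tested with edgeR, whose counts were not used here. The code was tested on simulated data. Ratios used an exact permutation test (Python 3.11.15, scipy 1.17.1). Intervals of values cover the spread between libraries only. In each list up to 3 genes per direction with the largest change, an adjusted p under 0.05 and a mean FPKM of at least 1 could be named. The subunits, lists and tests were chosen with earlier results of these data known. The miRNA sequence is from RefSeq (GRCh38.p14) and the 3'UTRs from GENCODE 29.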

Additional observations from a re-analysis of the deposited data

How the results depend on the processing

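The same 8 subunits passed under all 12 alternatives of the fit, in the same direction: a pseudocount of 0.1, only genes with mean FPKM 1 or more, a replicate block, equal sums, equal medians, quantile normalization, and each library left out. The highest limma adjusted p among them was 0.0345, for ITGB4. ITGA5 had a log2 fold change of −0.017 with equal sums, −0.025 with equal medians and −0.014 with quantile normalization, and −0.064 to 0.10 with 1 library left out. ITGB6 ranged from −0.032 to 0.13, and the ITGB8 to ITGAV log2 difference from −0.063 to 0.0091 (positive without miR-204-5p mimics replicate 2). The cause was not tested. Seed matches were found in 3 subunits with any annotated 3'UTR (33.7% of genes). With 8mers only, in the longest 3'UTR, they were found in 0 (8.60% of genes). Adding 3'UTRs can only raise the count, and a stricter match can only lower it. Genes passing numbered 4971 to 5371 with 1 library left out, and those of the 7 lists 37 to 45. With the replicate block, 5096 genes and 8 subunits passed. Same-numbered libraries did not deviate together (r = −0.04, −0.02 and −0.11 over 11504 genes). With 3 libraries per group, centred within the group, this cannot exclude a pairing, and the labels do not state one. Alternatives that need counts were not run. Counting error, at the lower inferred depth and the listed length, was up to 7.74% of a value for ITGB5.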
